A study of Homo sapiens with 8 samples.

Results

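Satellites are DNA repeats that stand head to tail in long arrays, mostly at centromeres, next to them, on the short arms of the acrocentric chromosomes and near chromosome ends. Minisatellites are shorter arrays of the same kind. Their DNA is usually methylated and packed as heterochromatin, and they are known as a class of repeats that can be transcribed when this methylation is lost, giving RNA that may form double strands. Here 16 such families were described, of 1264 repeat families listed in the deposited table. They were chosen by name, with earlier results of these data known. They are the repeat entries that begin with ALR, BSR, HSAT, GSAT, SATR, SST1, MSR1, TAR1, ACRO1 or REP522. MSR1 is the minisatellite, not the scavenger receptor gene of the same name. Of the 16 families, 15 had reads and passed the filter on low values. HSAT6 had 0 reads in all 8 libraries, below a floor of 3 reads per library, so it was not detectable at this depth.

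RNA was sequenced from THP-1, a human acute monocytic leukemia cell line labelled wild type, and from a decitabine-resistant line made from it. Decitabine (DAC) is a cytidine analogue that is built into DNA and traps DNA methyltransferases, so that methylation is lost as cells divide. Each line was treated for 6 days with the solvent DMSO or with 1 µM DAC, which gave 4 groups of 2 libraries labelled as biological replicates, here called parental DMSO, parental DAC, DAC-resistant DMSO and DAC-resistant DAC. The study's methods describe the resistant line as cells that outlived repeated pulses of DAC and then rested without drug, so it is a selected population and all 4 DAC-resistant libraries had met the drug before. DNA methylation of the satellites was not measured in these libraries.

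The libraries held 27480502 to 31916835 reads by gene totals inferred from the deposited values, and 3112424 to 3725678 reads on repeat families. Reads on the 16 satellite families came to 10887 to 11425 in parental and 8118 to 9363 in DAC-resistant libraries. The repeat families as a whole had 114 to 117 reads per 1000 gene reads in parental libraries and 102.7 to 103.5 in DAC-resistant ones. Replicates of a group differed by more than sampling noise, and none was a copy of another. As a check of the label, 8 to 10 of 10 monocytic leukemia markers were at 1 FPKM or more in both libraries of each group, and their summed level was 385 to 405 FPKM in parental and 514 to 546 FPKM in DAC-resistant libraries. CTSG, a granule protease, carried most of that difference (102.7 and 107.6 FPKM in parental DMSO, 283 and 272 FPKM in DAC-resistant DMSO), with ELANE, while SPI1, CD33, LYZ, CSF1R, ITGAM and FCGR1A were lower in both DAC-resistant DMSO libraries than in both parental DMSO ones (SPI1 102 and 102 against 72.4 and 67.4 FPKM). Of markers of other cells, those of T cells summed to at most 0.559 FPKM, those of epithelial cells to at most 0.149 FPKM, those of erythroid cells to at most 2.97 FPKM and those of B cells to between 0.729 and 4.97 FPKM. The 4 plasma cell markers summed to 2.31 to 2.47 FPKM in parental DMSO and 6.19 to 7.55 FPKM in the other groups. The part of these genes in the results below was not tested.

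Values are FPKM × 1000 as deposited, which are reads of a family divided by the total annotated length of all its copies and by a library total taken over repeats. A family has many copies, so a value has no single position in the genome, and copies inside genes cannot be told apart from free-standing arrays. In bulk RNA, fewer cells with a transcript and less of it per cell cannot be told apart either. No sequence is shown, since no reference with the family consensus sequences was at hand. Per length, MSR1 (mean over the 8 libraries 2319), HSAT5 (1515) and SST1 (1460) stood highest, followed by TAR1 (694) and REP522 (664). That order holds for the mean of all groups and not within each, since in parental DMSO SST1 (mean 679) was below SATR1 (813) and TAR1 (369) below GSATII (648), REP522 (594), HSAT4 (519) and HSATI (486). MSR1 in its lowest library (1978) was above HSAT5 in its highest (1956), while the ranges of HSAT5 and SST1 overlapped. ALR/Alpha, the alpha satellite of the centromeres, was at 8.24 per length, because its copies add up to 73.0 Mb, but it gave 1356 to 2643 reads per library and so was among the best counted families.

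**Figure D1:**
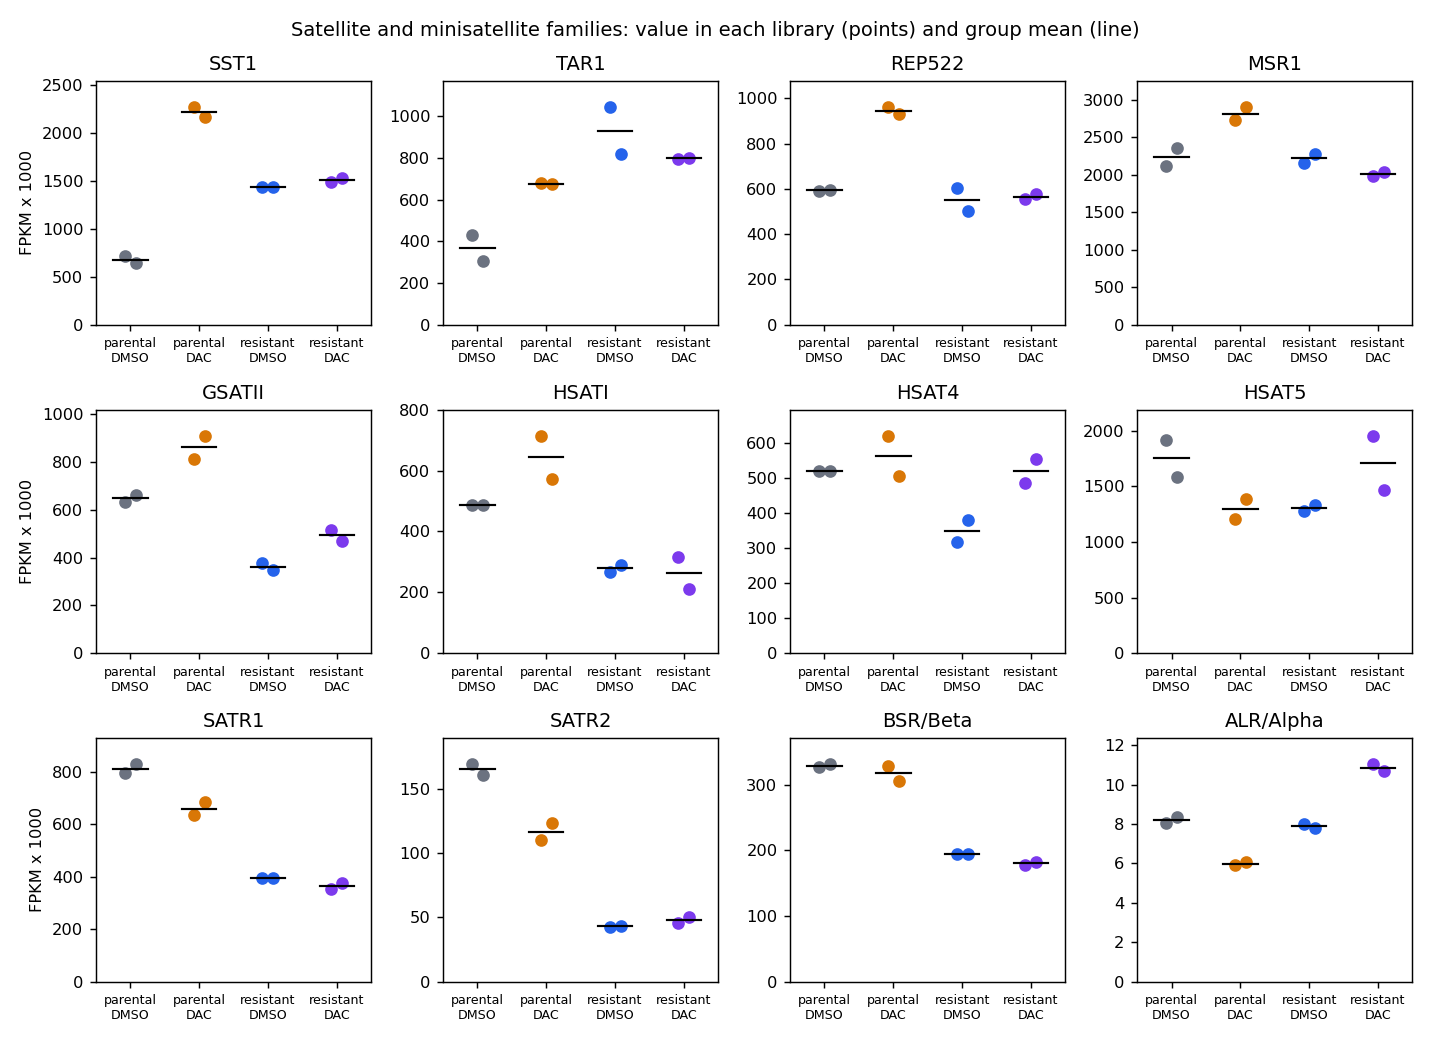
Deposited value (FPKM × 1000, vertical axis from 0, with a scale of its own in each panel) of 12 families in each library (points) and the group mean (line), for 2 libraries in each of 4 groups. In parental DAC, SST1 stood at 2166 and 2269 against 643 and 715 in parental DMSO, while SATR1, SATR2 and BSR/Beta were lower in every DAC-resistant library than in every parental one.

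The first comparison asked what DAC does to these families in parental cells. SST1, a long tandem repeat known for losing methylation in cancer, rose 3.27-fold, the subtelomeric repeat TAR1 rose 1.86-fold, REP522 1.59-fold, the gamma satellite GSATII 1.33-fold and the minisatellite MSR1 1.26-fold. SATR1 fell. In all, 6 of the 15 tested families (40%) changed at an adjusted p under 0.05 (limma, Benjamini-Hochberg adjustment over the 1165 repeat families tested), beside 23.6% of all repeat families, and 5 of the 6 were higher, beside 12.6% of all families called higher and 11% called lower. This balance depends on the scaling, for with every library rescaled to the same sum of per-length values (TPM) 1 family was higher (SST1) and 4 were lower (SATR1, SATR2, BSR/Beta and HSAT5), beside 5.92% of all families called higher and 53% lower. The median log2 change was 0.14 over the 15 families and -0.02 over all families tested.

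SST1 was at 715 and 643 in parental DMSO (1149 and 978 reads) and at 2269 and 2166 in parental DAC (3081 and 2954 reads). The 2 groups were far apart and their replicates close together. The log2 change was 1.71 (SE 0.0572, 95% interval 1.56 to 1.85, limma adjusted p = 5.8e-05, 2 libraries a group), and it stayed between 1.30 and 1.73 when the repeats were scaled in other ways. Of all satellite reads, SST1 made up 10.1% and 8.98% in parental DMSO and 27.1% and 25.9% in parental DAC. The thresholds of the study's volcano plots, an unadjusted p up to 0.01 with a log2 change of 1 or more, were applied to limma's p-values. They are called the study's thresholds here, although its heatmap of double-stranded RNAs used another cut. The study's thresholds were passed by 4.21% of all families and, among the 15, by SST1 alone.

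TAR1, which lies next to the telomere repeats of many chromosome arms, was at 430 and 307 in parental DMSO and at 678 and 675 in parental DAC. The groups did not overlap, but the DMSO libraries differed from each other by more than the DAC libraries did, and rested on 157 and 106 reads. The log2 change of TAR1 was 0.89 (SE 0.186, limma adjusted p = 0.0254). The call was lost without parental DMSO replicate 2 (0.65, adjusted p = 0.0688), without parental DAC replicate 1 or 2 (adjusted p = 0.109 and 0.102) and without DAC-resistant DAC replicate 1 or 2 (adjusted p = 0.0534 and 0.0540). REP522 was at 593 and 595 in parental DMSO and at 961 and 930 in parental DAC. Its log2 change was 0.67 (SE 0.0899, limma adjusted p = 0.00741), and every fit without 1 library kept it.

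GSATII, a gamma satellite of the DNA beside the centromere, was at 634 and 663 in parental DMSO and at 814 and 911 in parental DAC (log2 change 0.41, SE 0.0842, limma adjusted p = 0.0246). MSR1 was at 2114 and 2359 in DMSO and at 2728 and 2901 in DAC (log2 change 0.33, adjusted p = 0.0219, but -0.070 with TPM and 0.20 after quantile normalization, adjusted p = 0.0706). With TPM the median of all repeat families was -0.42 in place of -0.02, and GSATII was at 0.01, TAR1 at 0.49 and REP522 at 0.27, none of which passed the test. SST1 (1.30) passed it. GSATII, MSR1 and SATR1 lost their calls in 3 fits each that left out 1 parental library, with adjusted p-values of 0.0610 to 0.110, so that the count of 6 became 3 without any 1 of the 4 parental libraries. Fewer of all repeat families were also called without any 1 of those libraries. With only the groups compared in the fit, GSATII (adjusted p = 0.0600), MSR1 (0.0828), SATR1 (0.0651) and TAR1 (0.0784) were lost, and GSATII was also lost with a replicate block (adjusted p = 0.0514).

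The other families were lower or did not pass the test. SATR1 was at 796 and 830 in parental DMSO and at 634 and 685 in parental DAC, which is 1.23-fold lower (log2 change -0.30, SE 0.0595, limma adjusted p = 0.0220). SATR2 was at 169 and 161 against 110 and 123, groups that did not overlap, with a log2 change of -0.50 (interval -0.92 to -0.08) that did not pass by limma (adjusted p = 0.0882) and that passed by voom on the recovered reads (adjusted p = 0.0133) and without a variance trend (adjusted p = 0.0145). HSAT5 was at 1918 and 1587 against 1203 and 1385, again without overlap and short of the threshold (-0.43, adjusted p = 0.129). BSR/Beta, the beta satellite of the acrocentric and pericentromeric regions, was at 327 and 332 against 328 and 306, with an interval of -0.24 to 0.13. HSAT4 was at 520 and 518 against 620 and 505 and HSATI, an AT-rich satellite, at 487 and 486 against 715 and 573.5, and neither passed (adjusted p = 0.628 and 0.244).

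ALR/Alpha and GSAT are described in more detail because of values seen in the data, not by the rule for named families. ALR/Alpha, the repeat on which the centromere is built, was at 8.05 and 8.37 in parental DMSO (2189 and 2152 reads) and at 5.90 and 6.08 in parental DAC (1356 and 1402 reads). Its replicates were close to each other and the groups were apart, yet limma gave a log2 change of -0.40 with SE 0.657 and an adjusted p of 0.696, since moderation along the trend lends to it the wide spread of families that have low values and few reads. With TPM the change was -0.75 and after quantile normalization -2.20, and neither passed (adjusted p = 0.375 and 0.212). On the recovered reads, limma's voom gave -0.45 (adjusted p = 1.5e-08), where 18.5% of all families were called lower. With variances moderated without a trend, a setting added after the data were seen, the adjusted p was 0.00497. GSAT, another gamma satellite, had 1 and 0 reads in parental DMSO and 16 and 10 reads in parental DAC. The ratio of these reads, scaled by depth, was 29.9, with an exact 95% interval for counting error of 4.91 to 1225. Limma did not call GSAT (adjusted p = 0.158), while voom (adjusted p = 0.00492) and the fit without a trend (0.0365) did. In DAC-resistant cells GSAT had 0 and 2 reads in DMSO and 1 and 0 with DAC. GSATX (29 and 34 reads in DMSO, 24 and 24 with DAC) and ACRO1, the acrocentric satellite (12 to 36 reads), showed no change that was detectable at this depth (limma adjusted p = 0.737 and 0.938).

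**Figure D2:**
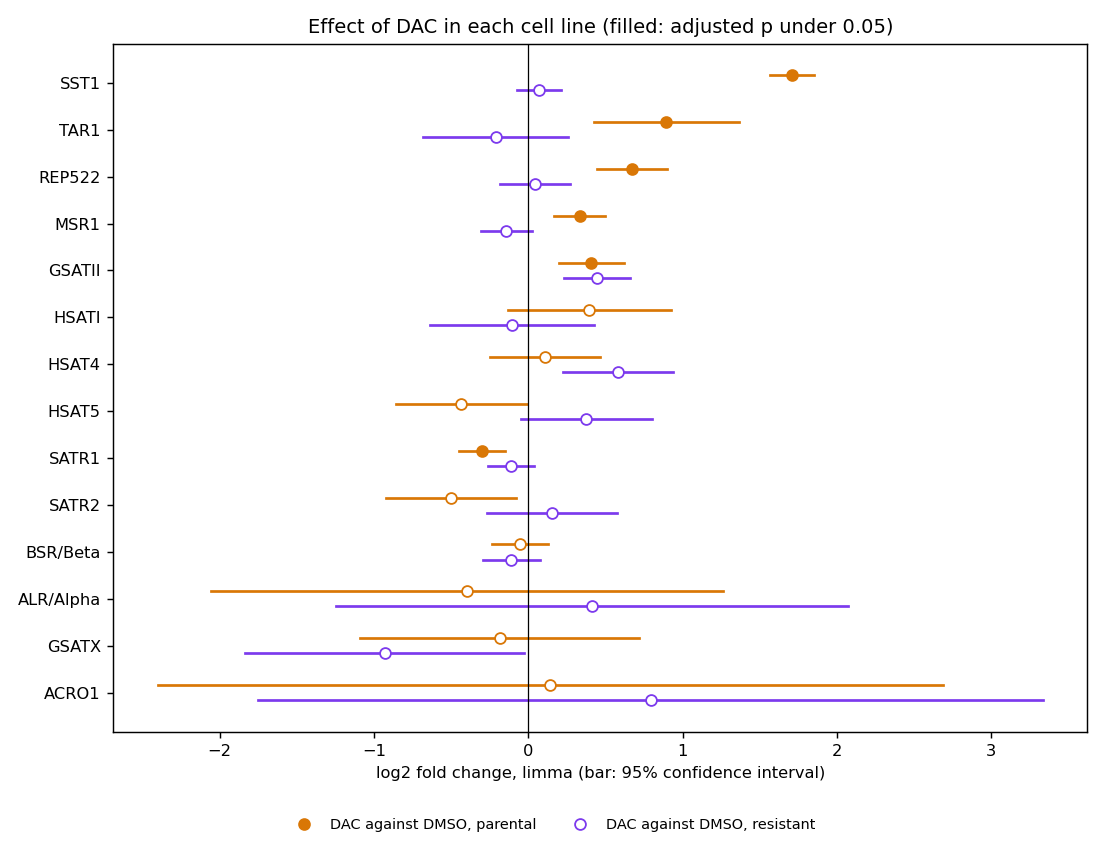
Log2 fold change of DAC against DMSO from limma (horizontal axis) with its 95% confidence interval for 14 families in parental and DAC-resistant cells, filled where the adjusted p was under 0.05. SST1 is at 1.71 in parental and at 0.07 in DAC-resistant cells, and no point of the DAC-resistant cells is filled.

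In DAC-resistant cells the same drug exposure gave no call. None of the 15 families passed the adjusted threshold, 3 had an unadjusted p under 0.05 (limma), and voom called 2. For the adjusted calls the background was 0% of all repeat families by limma and 2.4% by voom. The limma count thus says little of the satellites in particular. The 2 of 15 called by voom are a larger share than its background, but rest on 2 families. No such share is given for the unadjusted cut, so the 3 families there are not read as an excess. The libraries of both groups did not overlap for 11 of the 15 families, beside 43.4% of all families. The median log2 change was 0.04 over the 15 families and 0.01 over all.

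SST1 was at 1434 and 1437 in DAC-resistant DMSO and at 1487 and 1526 in DAC-resistant DAC. The 2 DAC libraries were higher by 1.05-fold, with a log2 interval of -0.08 to 0.21 (limma adjusted p = 0.694). TAR1 was at 1044 and 820 against 797 and 801 (log2 interval -0.68 to 0.26), REP522 at 603 and 501 against 555 and 576 (-0.19 to 0.27), and MSR1 at 2162 and 2274 against 1978 and 2036 (-0.31 to 0.02).

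GSATII, HSAT4 and GSATX were the 3 families with an unadjusted p under 0.05 there. GSATII was at 376 and 346 in DAC-resistant DMSO and at 516 and 469 with DAC (log2 change 0.45, unadjusted p = 0.00266, adjusted p = 0.213 by limma). HSAT4 was at 316 and 381 against 485 and 554 (0.58, adjusted p = 0.330), and voom on 268 and 309 against 415 and 457 reads called it (adjusted p = 0.0038). GSATX had 18 and 20 reads in DMSO and 14 and 7 with DAC. ALR/Alpha was the other family that voom called, at 7.99 and 7.80 (1899 and 1773 reads) in DMSO and 11.04 and 10.7 (2643 and 2466 reads) with DAC. Its log2 change was 0.42 by limma (adjusted p = 0.845), 0.46 by voom (adjusted p = 1.7e-08), 0.42 without a trend (adjusted p = 0.0510) and -0.94 after quantile normalization, which turned its direction.

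Whether the DAC effect differed between the lines was tested as the effect in DAC-resistant minus the effect in parental cells. It was lower in DAC-resistant cells for SST1 (log2 difference -1.64, SE 0.0810, 95% interval -1.84 to -1.43, limma adjusted p = 0.000399), REP522 (-0.63, adjusted p = 0.0351) and MSR1 (-0.48, adjusted p = 0.0316). These 3 of 15 (20%) stand beside 13.3% of all repeat families, or 6.87% called lower and 6.44% called higher. With TPM the only lower one was SST1 (-1.29) and 4 were higher (HSAT5, SATR2, HSAT4 and SATR1), beside 4.89% of all families called lower and 37.3% higher. SST1 kept its call in every fit without 1 library, while REP522 and MSR1 lost theirs without any 1 of the 4 DAC-treated libraries (adjusted p = 0.0714 to 0.113). REP522 was also lost without either parental DMSO replicate, and MSR1 without parental DMSO replicate 1 or either DAC-resistant DMSO replicate (adjusted p = 0.0671 to 0.102). MSR1 was lost after quantile normalization too (-0.32, adjusted p = 0.0767). TAR1 had a difference of -1.11 that failed the correction by limma (adjusted p = 0.0532) and passed by voom (adjusted p = 0.000433). GSATII had a difference of 0.04 with an interval of -0.26 to 0.34, and it ranged from -0.05 to 0.38 over the other scalings.

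ALR/Alpha, HSAT5, SATR2 and HSAT4 were among the families with positive differences. ALR/Alpha was lower in both parental DAC libraries than in both parental DMSO ones and higher in both DAC-resistant DAC libraries than in both DAC-resistant DMSO ones, with a difference of 0.81 that limma did not call (adjusted p = 0.615), that voom gave as 0.91 (adjusted p = 2.7e-14) and that passed without a trend (adjusted p = 0.00232). HSAT5 was at 1275 and 1334 in DAC-resistant DMSO and at 1956 and 1465 with DAC (log2 change 0.38, limma adjusted p = 0.521). Its difference of 0.81 failed by limma (adjusted p = 0.0921) and without a trend (0.109) and passed by voom (0.019). SATR2 differed by 0.65, which failed by limma (adjusted p = 0.144) and voom (0.193) and passed without a trend (0.0268). HSAT4 differed by 0.47, which failed by limma (adjusted p = 0.205) and without a trend (0.216) and passed by voom (0.0431). By voom, 3 of the 15 families (ALR/Alpha, HSAT5 and HSAT4) had a higher and 4 a lower DAC effect in DAC-resistant cells. The shares of all families were 13.8% and 11.8%.

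The next comparison asked how the resistant line differs from parental cells without drug. SST1 and TAR1 were higher in DAC-resistant DMSO, by 2.12-fold and 2.54-fold. Another 6 were lower, namely SATR2 by 3.77-fold, SATR1 by 2.05-fold, GSATII by 1.79-fold, HSATI by 1.74-fold, BSR/Beta by 1.69-fold and HSAT4 by 1.495-fold. These 8 of 15 (53.3%) stand beside 29.5% of all repeat families, with 11.9% of all families called higher and 17.6% called lower. The median log2 difference was -0.53 over the 15 families and -0.07 over all.

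SST1 in DAC-resistant DMSO (1434 and 1437) was above parental DMSO (715 and 643) and below parental DAC (2269 and 2166), with no overlap on either side. The log2 difference from parental DMSO was 1.08 (SE 0.0572, limma adjusted p = 0.00039). TAR1 in DAC-resistant DMSO (1044 and 820) was above both parental groups, of which the DAC libraries reached 678. Its log2 difference from parental DMSO was 1.35 (SE 0.186, adjusted p = 0.0075), a call lost with only the groups compared in the fit (adjusted p = 0.0594). REP522 and MSR1, which DAC raised in parental cells, were at 603 and 501 and at 2162 and 2274 in DAC-resistant DMSO and overlapped with parental DMSO (log2 intervals -0.34 to 0.12 and -0.18 to 0.16).

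SATR2 had 290 and 261 reads in parental DMSO (169 and 161 per length) and 64 and 62 in DAC-resistant DMSO (42.7 and 43.3 per length), the furthest fall of any of the 15 families (log2 difference -1.92, SE 0.166, limma adjusted p = 0.0016). SATR1 was at 796 and 830 against 394 and 397 (-1.04, SE 0.0595, adjusted p = 0.000522) and BSR/Beta at 327 and 332 against 195 and 194 (-0.76, SE 0.0729, adjusted p = 0.00229). The DAC-resistant replicates of these 3 families lay close together, and their values did not come near the parental ones. GSATII, at 634 and 663 against 376 and 346, was lower by 0.84 on the log2 scale (adjusted p = 0.00254). HSATI (54 and 51 reads against 26 and 27, adjusted p = 0.0421) and HSAT4 (520 and 518 against 316 and 381, adjusted p = 0.0340) were nearer to the threshold. Both calls held in only 2 of 8 fits without 1 library and were lost without any 1 of the 4 DMSO libraries (adjusted p up to 0.151 for HSATI and 0.128 for HSAT4). Both were also lost after quantile normalization (adjusted p = 0.0847 and 0.0749), HSATI by voom (adjusted p = 0.157), and HSAT4 with a replicate block (adjusted p = 0.0608) and with only the groups compared (adjusted p = 0.0722). ALR/Alpha was at 8.05 and 8.37 against 7.99 and 7.80 (log2 difference -0.05, voom adjusted p = 0.515), HSAT5 at 1918 and 1587 against 1275 and 1334 (-0.42, limma adjusted p = 0.124). Scaling the repeats by gene reads instead moved all families down in the resistant line (median over all families -0.25 in place of -0.07), and under each scaling the signs of the 8 called families stayed the same.

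**Figure D3:**
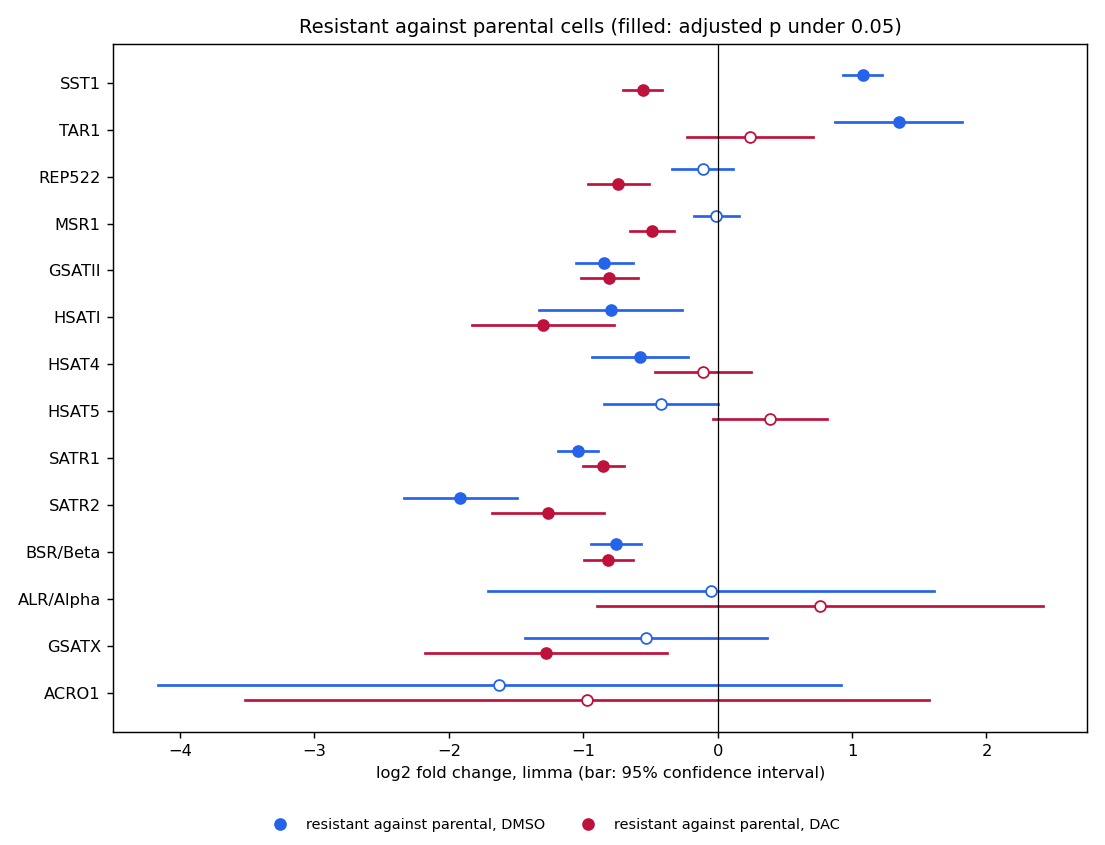
Log2 fold change of DAC-resistant against parental cells from limma (horizontal axis) with its 95% confidence interval for 14 families, in DMSO and in DAC, filled where the adjusted p was under 0.05. SST1 is at 1.08 in DMSO and at -0.56 in DAC, while SATR2 (-1.92 and -1.26), SATR1 and BSR/Beta are lower in both.

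With DAC in both lines, 9 of the 15 families (60%) were lower in DAC-resistant cells and none was higher, beside 36% of all families called, or 18.9% lower and 17.1% higher. With TPM 8 were lower and 1 higher (HSAT5, log2 difference 0.63), beside 11.3% and 32.1% of all families. SATR2 was 2.40-fold lower (110 and 123 against 45.8 and 50.2, limma adjusted p = 0.00391), HSATI 2.46-fold (67 and 54 reads against 31 and 20, adjusted p = 0.00769), SATR1 1.80-fold (634 and 685 against 354 and 377, adjusted p = 0.000465), BSR/Beta 1.76-fold (328 and 306 against 178 and 183, adjusted p = 0.00115) and GSATII 1.75-fold (814 and 911 against 516 and 469, adjusted p = 0.00191). These 5 were also lower in DMSO. REP522 was 1.67-fold lower, SST1 1.47-fold (2269 and 2166 against 1487 and 1526, adjusted p = 0.0018) and MSR1 1.40-fold. GSATX had 24 and 24 reads against 14 and 7 (log2 difference -1.28, adjusted p = 0.0431). This call held in 1 of 8 fits without 1 library, that without DAC-resistant DAC replicate 1 (-1.74, adjusted p = 0.0194), and in 5 of 11 alternatives. It was lost without DAC-resistant DAC replicate 2 (-0.82, adjusted p = 0.0953), without any 1 of the other 6 libraries (adjusted p up to 0.134), with TPM (adjusted p = 0.0648), after quantile normalization (-0.50, adjusted p = 0.108), by voom (adjusted p = 0.108), with a pseudocount of 1 FPKM (adjusted p = 0.0611), with a replicate block (adjusted p = 0.0736) and with only the groups compared (adjusted p = 0.1301). TAR1 (678 and 675 against 797 and 801) had an interval of -0.23 to 0.71. ALR/Alpha was higher in both DAC-resistant libraries (11.04 and 10.7 against 5.90 and 6.08), with a log2 difference of 0.76 by limma (adjusted p = 0.409) and 0.86 by voom (adjusted p = 7.4e-20, where 20.5% of all families were called higher). The comparisons share groups with one another, so their counts are not independent.

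Added up over the 16 families, satellite reads were 0.305% and 0.309% of repeat reads in parental DMSO, 0.362% and 0.361% in parental DAC, 0.263% and 0.261% in DAC-resistant DMSO and 0.286% and 0.288% in DAC-resistant DAC. No 2 groups overlapped, and an exact permutation test of 2 libraries against 2 gave its smallest possible p of 0.3333 for each pair. The mean share was 1.18-fold higher with DAC in parental cells, a direction that turned with TPM (log2 ratio -0.039) and after quantile normalization (-0.19), and without SST1, a sum added after the data were seen, it stood at 0.274% and 0.281% against 0.264% and 0.268%. The sum of the other families was thus no higher with DAC than without. In DAC-resistant cells the sum without SST1 was 0.201% and 0.199% in DMSO and 0.221% and 0.222% with DAC, and ALR/Alpha went from 22.0% to 27.7% of all satellite reads. The make-up of the satellite RNA differed between the lines too, with SATR1 at 25.1% of satellite reads in parental DMSO and 14.3% in DAC-resistant DMSO, and BSR/Beta at 16.6% and 11.5%.

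**Figure D4:**
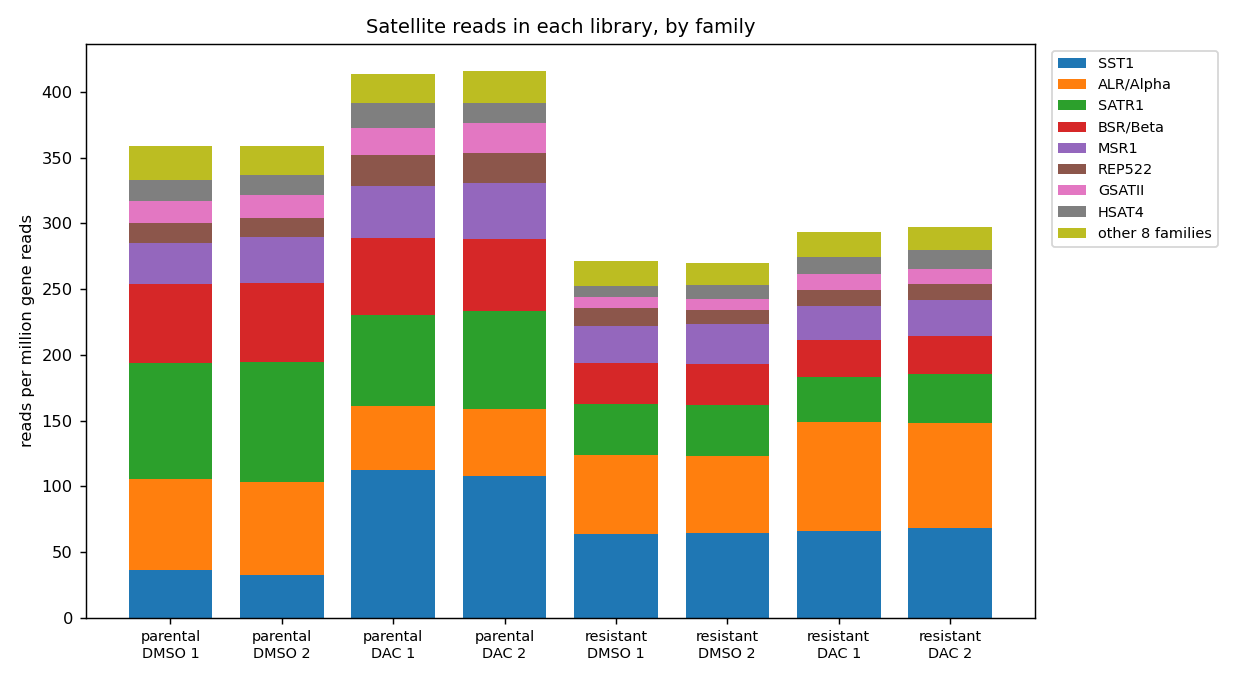
Reads of the satellite families as CPM of gene reads (vertical axis, from 0), stacked by family, in each of the 8 libraries. SST1 is at 32.3 to 36.2 in parental DMSO, 107.5 to 112.1 in parental DAC and 63.8 to 68.0 in the DAC-resistant libraries, and SATR1 shrinks from 88.7 to 91.5 in parental DMSO to 34.5 to 39.0 in DAC-resistant libraries.

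A list of 34 genes was tested at log2(FPKM + 1), which holds genes of satellite DNA methylation, heterochromatin proteins, centromere and telomere proteins, and genes tied to satellite III transcription. With DAC in parental cells 10 rose and 14 fell, beside 57.7% of all genes called, or 33.6% higher and 24.1% lower. The largest falls were in CDCA7, which helps recruit the remodeller HELLS to satellite heterochromatin (13.9 and 14.4 FPKM in DMSO, 5.97 and 6.44 with DAC, log2 change -1.07, SE 0.0443, limma adjusted p = 4.3e-06), and in CBX5, the heterochromatin protein HP1 alpha (36.9 and 37.9 against 22.7 and 23.0 FPKM, -0.69). The largest rises were in SAFB, a nuclear matrix protein found at satellite III transcripts after heat stress (0.51), and in CBX3, another HP1 protein (0.41). In DAC-resistant cells 1 rose and 6 fell, beside 11.2% of all genes called, or 5.88% higher and 5.35% lower. KMT5B, which methylates histone H4, rose by 0.27, and CBX1 (-0.44) and DNMT1, the maintenance DNA methyltransferase (23.2 and 23.1 against 17.5 and 17.3 FPKM, -0.39, adjusted p = 0.00115), fell the most. The count of 7 in DAC-resistant cells became 4 without either DAC-resistant DMSO replicate or without DAC-resistant DAC replicate 2.

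Between the lines in DMSO, 11 of the 34 genes were higher and 6 lower in DAC-resistant cells, beside 57.5% of all genes called, or 31.3% higher and 26.2% lower. CBX5 (64.7 and 65.4 FPKM, log2 difference 0.78) and CENPB, which binds a motif in alpha satellite (0.65), were raised the most, and LRIF1, a partner of HP1 and SMCHD1 (-0.89), and HELLS (-0.46) were lowered the most. With DAC in both lines, 16 were higher and 11 lower, beside 67% of all genes called, or 32% higher and 35.1% lower. They were led by CBX5 (1.29) and CDCA7 (1.09) on one side and SAFB (-0.60) and DNMT1 (-0.57) on the other. Of the 34 genes, 11 had a higher and 8 a lower DAC effect in DAC-resistant cells, beside 49.3% of all genes called, or 20.9% higher and 28.4% lower. The highest differences were those of MIS18A, which helps to load the centromere histone CENP-A (0.75, adjusted p = 0.00268), and CDCA7 (0.71, adjusted p = 0.000185). The lowest were those of CBX1 (-0.81, adjusted p = 1.9e-05), which was at 27.4 and 27.3 against 36.3 and 35.0 FPKM in parental cells and at 33.7 and 33.0 against 24.3 and 24.4 FPKM in DAC-resistant cells, and of DNMT1 (-0.64, adjusted p = 3.7e-05), which rose in parental cells (21.9 and 22.2 against 26.2 and 26.7 FPKM). Whether any of these genes bears on the satellite values was not tested.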

How the data were processed

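Libraries came from total RNA through an mRNA kit, which selects polyadenylated RNA, so satellite RNA without a poly(A) tail is under-represented. The authors trimmed reads with Cutadapt 1.9.1, aligned them to hg38 with Hisat2 2.1.0, sorted them with samtools 1.6 and counted them with HTSeq 0.13.5 on Ensembl genes and on RepeatMasker families. How reads with several alignments were treated, and whether strand was used, is not given in the sources used here. This choice may affect the values of satellite families, which have many copies, more than those of other families. The deposited values are FPKM × 1000, which the authors scaled by separate totals for genes and for repeats, and columns were matched to samples by name.

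Whole reads were recovered from the steps of the values for 1172 of 1172 families above 0 (100%, tolerance 0.01 read). Gene totals were inferred by taking the commonest product of gene value and GENCODE exon length as 1 read. Gene reads then summed to 104.3% to 104.7% of these totals. Families with a value of at least 1 in at least 2 of 8 libraries were fitted as log2(value + 1) in R 4.3.3 with the package limma 3.58.1 (a mean for each of 4 groups, trended variance moderation), and called at a Benjamini-Hochberg adjusted p under 0.05 over all 1165 families. Fold changes are on that scale and understate the change of low families. Genes were fitted as log2(FPKM + 1) with a minimum of 1 FPKM (14899 tested). The p-values rest on the spread between the 2 replicates of each group, pooled over the 4 groups and moderated across families, and this spread may be technical. Fits were tested on simulated data. Counting intervals and floors cover counting error only.

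The members and lists were chosen with earlier results of these data known. Values in every library are given for families called in at least 1 of 5 comparisons and for the 5 with the highest mean, and log2 changes for the called chromatin genes with the 2 largest rises and 2 largest falls. Library values of CDCA7, CBX5, CBX1 and DNMT1, and the other changes of DNMT1, are given outside this rule and were chosen after their values were seen. Satellite families outside the name rule were fitted with all families and are named only in the closing section. Alternatives were other pseudocounts, filters and scalings, voom on recovered reads, a fit of only the groups compared, a replicate block, the study's thresholds and leaving out each library. The authors' DESeq2 test on raw counts was not run, and voom on the recovered reads was the count-based alternative.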

Additional observations from a re-analysis of the deposited data

Results flagged for a closer look

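The DAC effect differed between the lines, as effect in DAC-resistant minus effect in parental cells on the log2 scale with limma's interaction test, for SST1 (-1.64), REP522 (-0.63) and MSR1 (-0.48), each at an adjusted p under 0.05. The libraries of the 2 lines moved in opposite directions with DAC for ALR/Alpha (0.81), HSAT5 (0.81), SATR2 (0.65) and TAR1 (-1.11), whose interaction tests did not pass (adjusted p = 0.615, 0.0921, 0.144 and 0.0532). By voom the TAR1, HSAT5 and ALR/Alpha differences passed (adjusted p = 0.000433, 0.019 and 2.7e-14) and that of SATR2 did not (adjusted p = 0.193). Without a variance trend ALR/Alpha (adjusted p = 0.00232) and SATR2 (0.0268) passed, and TAR1 (0.0666) and HSAT5 (0.109) did not. With TPM HSAT5 (adjusted p = 0.0133) and SATR2 (0.0219) passed, and TAR1 (0.0675) and ALR/Alpha (0.386) did not.

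Of 5 satellite entries with reads outside the 16 families, 2, chosen after their values were seen, were higher with DAC in parental cells, where 12.6% of all families were called higher. The other 3, CER (0.83, limma adjusted p = 0.154), LSAU (0.29, adjusted p = 0.670) and (CATTC)n (1.23, adjusted p = 0.594), did not pass. The entry (GAATG)n, the unit of human satellites II and III, had 9 and 4 reads in DMSO and 42 and 26 with DAC, a log2 change of 2.49 (limma adjusted p = 0.0315), and 15, 12, 17 and 13 reads in the DAC-resistant libraries. D20S16 had 42 and 37 reads in DMSO and 63 and 60 with DAC, a log2 change of 0.84 (adjusted p = 0.0451).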

How the results depend on the processing

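Of the 26 calls made for single families over the 5 comparisons, 17 held in every fit without 1 library, 15 in every other alternative and 15 in both, leaving aside the study's thresholds. Scaling to TPM reversed the DAC effect on MSR1 in parental cells (-0.070). The count of 6 families with DAC in parental cells became 2 when only the groups compared were fitted, where 166 of all 1165 families were called. It became 1 with the study's thresholds, beside 4.21% of all families. Without 1 library it was the same or lower, and fewer of all families were called in each such fit. It was 9 (6 higher, 3 lower) both by voom and without a variance trend, beside 35.4% and 21.3% of all families. A pseudocount of 1 FPKM or a filter of 10 reads gave 7, where 285 of 1165 and 282 of 1084 families were called. With TPM it was 5 (1 higher, 4 lower), beside 58.9% of all families. The count of 0 in DAC-resistant cells became 2 by voom. Between the lines, the study's thresholds gave 4 families in DMSO (8 in the report) and 2 in DAC (9), beside 4.64% and 7.21% of all families. The 3 families whose DAC effect differed were all lower in DAC-resistant cells. This count became 5 with TPM (4 higher, 1 lower) and 7 by voom (3 higher, 4 lower), beside 42.1% and 25.7% of all families. Without 1 library this count was lower, and fewer of all families were called in each such fit. Without a variance trend, a setting added after the data were seen, it was 5 (2 higher, 3 lower). In that fit 12.3% of all families were called (5.06% higher, 7.21% lower). The 7 chromatin genes in DAC-resistant cells became 4 to 7 without 1 library. The causes of these shifts were not tested.

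The log2 ratio of the summed satellite share was 0.24 with DAC in parental cells, and it was 0.21 scaled by gene reads, -0.039 with TPM, -0.19 after quantile normalization, -0.063 without SST1 and 0.23 to 0.24 without 1 library. In DAC-resistant cells 0.13 became 0.012 with TPM, -0.19 after quantile normalization and 0.15 without SST1. Between the lines in DMSO, -0.23 became -0.41 by gene reads, -0.22 with TPM, -0.47 without SST1 and -0.24 to -0.22 without 1 library. In DAC, -0.33 became -0.49 by gene reads, -0.17 with TPM, -0.22 after quantile normalization and -0.26 without SST1. The difference of the DAC effects, -0.10, became -0.084 by gene reads, 0.051 with TPM, 0.0052 after quantile normalization, 0.21 without SST1 and -0.11 to -0.10 without 1 library.

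Same-numbered replicates deviated together (r over 0.1) in 1 of 6 pairs of groups (r -0.06 to 0.20 over 873 families). That pair was parental DMSO with DAC-resistant DAC (r = 0.196). The labels give only a replicate number, and whether same-numbered libraries share more than that was not tested. With the replicate block the counts were 5, 0, 7, 8 and 2 for DAC in parental, DAC in DAC-resistant, the lines in DMSO, the lines in DAC and the difference of effects. Fewer of all families were also called under the block, except with DAC in DAC-resistant cells, where neither fit called any. The lower counts were therefore not seen in the satellites alone. The calls lost under the block were GSATII in the first (adjusted p = 0.0514), HSAT4 in the third (0.0608), GSATX in the fourth (0.0736) and REP522 in the fifth (0.0579). GSAT, GSATX, ACRO1 and HSATI, with 0 to 67 reads per library, were limited by depth.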
